A study of Homo sapiens with 10 samples.

Results

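Iron leaves human cells through a single known exporter, ferroportin, enters them mainly bound to transferrin, and is stored inside shells of ferritin. Described here are 10 genes of that circuit: *SLC40A1* (ferroportin, the exporter), *TFRC* (the transferrin receptor), *SLC11A2* and *SLC39A14* (divalent metal importers), *FTH1* and *FTL* (the heavy and light subunits of ferritin), *NCOA4* (the cargo receptor that delivers ferritin to lysosomes), *IREB2* and *ACO1* (the iron regulatory proteins IRP2 and IRP1) and *HMOX1* (the inducible haem oxygenase, which frees iron from haem). The genes were picked by symbol, and they were proposed because *SLC40A1* was already known to be among the genes that fell most when ZMAT3 was lost, so the fall of *SLC40A1* is given below as a description without a test. Of the 10, all have values in the *ZMAT3* table, which holds 13029 genes, and 9 have values in the siRNA table, which holds 17642. *SLC40A1* was not analysed in the siRNA experiment.

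The cells were HCT116, an established line from a human colorectal cancer, grown in DMEM with serum, penicillin and streptomycin. The study describes no drug treatment of these libraries. In the first experiment, 3 *ZMAT3*-WT libraries were compared with 3 *ZMAT3*-KO libraries, to ask which transcripts depend on ZMAT3, an RNA-binding protein induced by p53. The knockout was made with Cas9 and a pair of guides placed around the p53 response element in an intron of *ZMAT3*, both genotypes were isolated as single cells from one parental line, and 1 knockout clone was used, so an effect of losing ZMAT3 and a property of that clone cannot be told apart. The labels of these 6 libraries also carry the abbreviations EV and unt, which no source used here explains. In the second experiment, 2 libraries from cells given a control siRNA (siCTRL) were compared with 2 from cells given a pool of siRNAs against p53 (sip53) for 72 h. Whether a change reflects fewer cells that express a gene or less RNA per cell cannot be told apart in bulk RNA.

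Cells balance iron largely after transcription. When iron is scarce, the IRPs bind hairpins called iron-responsive elements in mRNA. A hairpin in the 5′ UTR, as in the ferritins and ferroportin, then blocks translation, whereas hairpins in the 3′ UTR, as in *TFRC*, shield the transcript from decay. The level of a *TFRC* transcript is therefore commonly read as a sign of IRP activity, while the ferritin proteins can move without their mRNAs. RNA-seq measures only the transcripts.

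These hairpins are shown because their place in the mRNA, 5′ or 3′, goes with the known mode of control by the IRPs. The search was for an unpaired C, 5 bases of a stem, the loop CAGTGN and 5 bases that close the stem (GT pairs allowed), on the transcribed strand of GENCODE release 44 transcripts in hg38. The loop is in capitals. Of 19701 canonical protein-coding transcripts, 0.0964% hold such an element with all 5 pairs in the 5′ UTR and 0.614% in the 3′ UTR. One was found in the 5′ UTR of *SLC40A1* (chr2:189580661-189580689, minus strand), of *FTH1* (chr11:61967574-61967602, minus strand) and of *FTL* (chr19:48965335-48965363, plus strand). 
SLC40A1: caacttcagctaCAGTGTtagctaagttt
FTH1: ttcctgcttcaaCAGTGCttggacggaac
FTL: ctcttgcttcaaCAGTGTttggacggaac

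In the 3′ UTR of *TFRC* 4 elements were found, all on the minus strand of chromosome 3. They are given in the order of the coordinates, at chr3:196050463-196050491, chr3:196050510-196050538, chr3:196050575-196050603 and chr3:196050979-196051007.
TFRC, lowest coordinate: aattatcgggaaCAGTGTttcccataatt
TFRC, next: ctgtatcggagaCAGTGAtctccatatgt
TFRC, next: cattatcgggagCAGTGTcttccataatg
TFRC, highest coordinate: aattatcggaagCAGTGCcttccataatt

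The 3′ UTR of *SLC11A2* holds an element with 4 of the 5 pairs (chr12:50988269-50988297, minus strand), and so do those of *IREB2* (chr15:78500969-78500997, plus strand) and *ACO1* (chr9:32452986-32453014, plus strand). An element of at least 4 pairs is present in the 3′ UTR of 4.21% of canonical transcripts. A match is a description of letters and not evidence that an IRP bound there.
SLC11A2: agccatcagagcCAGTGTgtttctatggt
IREB2: catttgctttcaCAGTGAtgagtgagagg
ACO1: aagtatcttggcCAGTGTctcaaccttgc

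The libraries were first checked with *ZMAT3* and with *CDKN1A*, the p53 target that encodes p21. Values of the *ZMAT3* experiment are log2 CPM, that is, read counts relative to all counts of a library, in which 1 unit is a doubling. *ZMAT3* was at 5.00, 5.20 and 5.26 log2 CPM in *ZMAT3*-WT and at 2.25, 2.34 and 2.20 in *ZMAT3*-KO, 7.43-fold lower. *CDKN1A* was lower there too, at 7.66, 7.66 and 7.61 log2 CPM in *ZMAT3*-WT and at 7.12, 7.06 and 7.15 in *ZMAT3*-KO (log2 fold change -0.53, adjusted p = 2.02e-08 in limma). Values of the siRNA experiment are FPKM, which also takes the length of a transcript into account. In that experiment *CDKN1A* was at 525 and 481 FPKM with siCTRL and at 34.2 and 37.7 FPKM with sip53, and *ZMAT3* was 4.96-fold lower, at 3.16 and 1.97 FPKM with sip53. No table held read counts, so library depth is not known. Of 10 colorectal epithelial markers, 8 are in the *ZMAT3* table, without *VIL1* and *LGR5*. Their summed level was 5848 to 6181 CPM in *ZMAT3*-WT and 3253 to 3342 CPM in *ZMAT3*-KO libraries. The keratins fell. *KRT8* went from 11.72, 11.61 and 11.61 log2 CPM in *ZMAT3*-WT to 10.68, 10.71 and 10.73 in *ZMAT3*-KO. *KRT18* went from 10.50, 10.45 and 10.49 to 9.66, 9.63 and 9.70, and *KRT19* from 9.64, 9.54 and 9.56 to 7.85, 7.79 and 7.85. The epithelial adhesion gene *EPCAM* was between 8.51 and 8.58 log2 CPM in all 6 libraries and *CDX2* between 4.43 and 4.59. The groups of *CDH1*, *CLDN3* and *CLDN4* overlapped. In the siRNA libraries the 9 markers measured summed to 3877 to 4171 FPKM with siCTRL, and with sip53 to 3724 to 4320 FPKM. Of 8 macrophage markers only *CD68*, a lysosomal gene, is in the *ZMAT3* table (1.61 to 2.12 CPM in *ZMAT3*-WT, 3.20 to 3.88 CPM in *ZMAT3*-KO). Of the 8, 4 have values in the siRNA libraries, summing to 2.16 to 8.07 FPKM with siCTRL and, with sip53, to 12.3 to 27.3 FPKM, nearly all of it *CD68*, and *PTPRC* is in neither table. Of 8 hepatocyte markers, the same 2 are in each table, *SERPINA1* and *HNF4A*. Their sums were 9.10 to 9.58 CPM in *ZMAT3*-WT and 3.72 to 3.98 CPM in *ZMAT3*-KO. In the other experiment they were 11.8 to 15.5 FPKM with siCTRL against 9.13 to 13.6 FPKM with sip53. Most of the CPM sums was *HNF4A*, at 2.92, 2.94 and 3.08 log2 CPM in *ZMAT3*-WT and 1.47, 1.45 and 1.60 in *ZMAT3*-KO. Nearly all of the FPKM sums was *SERPINA1*, with *HNF4A* at 0.05 to 0.19 FPKM, so the sums of the 2 experiments are not alike. The part of these marker levels in the results below was not tested.

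*SLC40A1* was nearly absent from *ZMAT3*-KO cells. It was at 1.42, 1.499 and 1.75 log2 CPM in the *ZMAT3*-WT libraries (mean 1.56 ± 0.17, SD, n = 3) and at -4.79, -6.62 and -6.62 log2 CPM in the *ZMAT3*-KO libraries. The groups are far apart, and the knockout replicates 2 and 3 sit at -6.62, the lowest value in the table. If that value stands for no read with an offset of 0.5, then 3 reads correspond to -3.81 log2 CPM, and all 3 knockout libraries lie below that level. On that reading *SLC40A1* was at least 41.3-fold lower than the mean of *ZMAT3*-WT and 37.7-fold lower than its lowest library. All 6 libraries share 1 distribution of values, so a low value need not be a read count over depth, and the bound rests on an untested assumption. With 1 CPM added to every value, the log2 fold change of *SLC40A1* was -1.95. Without that addition the fitted difference was the fifth largest fall of 13029 genes, but its size depends on the lowest value and it is not used as a fold change. In hg38 the gene spans positions 189560590 to 189583758 of chromosome 2 and is read from the minus strand.

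Genes were also compared by their log2 CPM after the mean of each gene over *ZMAT3*-WT had been subtracted. By root mean square difference over the 6 libraries, the nearest 3 to *SLC40A1* were *AC104389.4* (0.60), *ZNF432* (0.68) and *HBG2* (0.82), a fetal globin. *HBG2* was at 0.01, 0.34 and 0.18 log2 CPM in *ZMAT3*-WT and at -6.62 in each *ZMAT3*-KO library. Ferroportin is also made in red cell precursors, so the erythroid markers were set beside it. Of 10 markers, 3 are in the *ZMAT3* table (*HBG2*, *HBE1* and *EPOR*), and they summed to 27.5 to 28.7 CPM in *ZMAT3*-WT and 6.85 to 7.58 CPM in *ZMAT3*-KO. The 3 did not move alike. The embryonic globin *HBE1* was at 4.32, 4.23 and 4.26 log2 CPM in *ZMAT3*-WT and at -6.09, -4.15 and -6.62 in *ZMAT3*-KO, whereas the erythropoietin receptor *EPOR*, at 2.94, 2.90 and 3.01 and at 2.77, 2.82 and 2.92 log2 CPM, made up nearly all of the knockout sum. Of the same markers 5 have values in the siRNA libraries, and their sum was 128 to 175 FPKM with siCTRL, against 337 to 363 FPKM with sip53, most of it *HBE1*. *ALAS2* and *KLF1*, which mark red cell precursors, are in neither table.

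The genes around *SLC40A1* were looked at after its fall had been seen. Within 500 kb on either side, 8 other genes have values. *COL5A2*, *ASNSD1* and *HNRNPCP2* had log2 fold changes of -0.02, -0.01 and -0.07, and did not pass the test. *ORMDL1* rose by 0.11 (limma, adjusted p = 0.0346), and *WDR75*, *OSGEPL1*, *PMS1* and *C2orf88* had log2 fold changes of -0.24, -0.32, -0.19 and -0.57 that passed (limma, adjusted p = 1.19e-05, 0.00227, 6.63e-04 and 3.57e-04). The fall of *SLC40A1* was thus not shared in size by any of the 8.

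**Figure D1:**
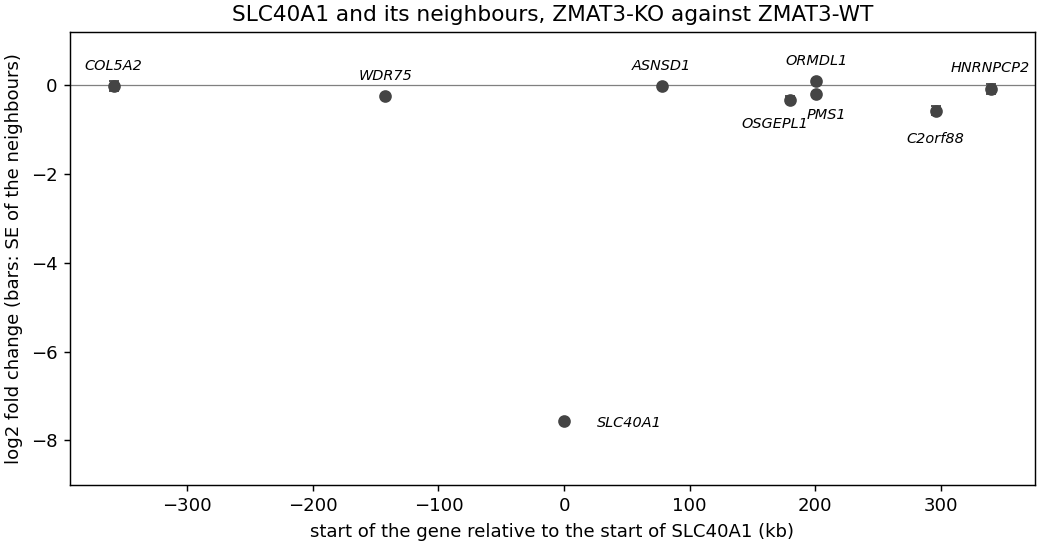
Fitted log2 fold change of *SLC40A1* and of the 8 genes with values within 500 kb, *ZMAT3*-KO against *ZMAT3*-WT (points, with the standard error of each neighbour as bars), by the distance of each gene's start from that of *SLC40A1* in kb. The neighbours lie between -0.57 and 0.11, and *SLC40A1* lies far below them at a size set by the lowest value of the table.

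Ferroportin works with a ferroxidase, hephaestin (*HEPH*) or ceruloplasmin (*CP*), and is removed from the membrane by hepcidin (*HAMP*). None of these has a row in the *ZMAT3* table. In the siRNA table *HEPH* was at 0.44 and 0.20 FPKM with siCTRL and at 0.21 and 0.10 FPKM with sip53, under the mean of 0.5 FPKM needed for a test, and *CP* and *HAMP* have no row.

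The ferritin transcripts rose in *ZMAT3*-KO cells. Here and below, the *ZMAT3* libraries were compared with limma, with p-values adjusted over all 13029 genes, and log2 fold changes (*ZMAT3*-KO against *ZMAT3*-WT) are given with their standard errors (SE). *FTH1* was at 10.71, 10.66 and 10.68 log2 CPM in *ZMAT3*-WT and at 11.29, 11.24 and 11.29 in *ZMAT3*-KO, a rise of 0.59 (SE 0.027, adjusted p = 1.86e-09), or 1.501-fold. *FTL* was at 9.97, 9.89 and 9.87 log2 CPM and rose to 10.55, 10.45 and 10.50, also by 0.59 (SE 0.034, adjusted p = 1.62e-08), or 1.505-fold. For both subunits each knockout library was above each wild-type library, and the SD within a group was 0.02 to 0.05 log2 units. Both folds are barely over the threshold of 1.5 used for calls in this experiment, and both dropped under it without *ZMAT3*-WT replicate 2 (0.58 for each), *ZMAT3*-WT replicate 3 (0.58 and 0.57) or *ZMAT3*-KO replicate 1 (0.58 and 0.56), while *FTH1* alone did so without *ZMAT3*-KO replicate 3 (0.58). The adjusted p stayed under 0.05 in each.

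Reads from ferritin mRNA can be assigned to the many processed ferritin pseudogenes, so these were counted. There are 4 in the *ZMAT3* table, of which the highest on average were *FTH1P10*, with a mean of 0.49 log2 CPM, and *FTH1P8*, with a mean of 0.41. Their log2 fold changes were 0.46 and 0.64 (limma, adjusted p = 0.0656 and 0.00517), in the direction of the ferritin genes themselves. Which copy these reads came from was not tested.

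*TFRC* fell in *ZMAT3*-KO cells. It was at 9.12, 9.24 and 9.25 log2 CPM in *ZMAT3*-WT and at 8.90, 8.94 and 8.86 in *ZMAT3*-KO, a log2 fold change of -0.31 (SE 0.036, adjusted p = 1.18e-05), so that the groups did not overlap. This is the member that carries the 4 elements printed above in its 3′ UTR. *SLC11A2*, which brings iron across the gut surface and out of endosomes, was at 5.33, 5.47 and 5.48 log2 CPM in *ZMAT3*-WT and at 5.26, 5.26 and 5.27 in *ZMAT3*-KO (-0.16, SE 0.043, adjusted p = 0.00576). Each knockout library was below each wild-type library. *SLC39A14*, the importer of iron not bound to transferrin, was at 7.59, 7.64 and 7.60 log2 CPM in *ZMAT3*-WT and at 7.59, 7.62 and 7.59 in *ZMAT3*-KO. Its groups overlapped, and the 95% interval of its log2 fold change ran from -0.07 to 0.05 (adjusted p = 0.774).

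The remaining members moved by less than 0.2 on the log2 scale, yet their groups did not overlap either. *IREB2* was at 6.79, 6.83 and 6.82 log2 CPM in *ZMAT3*-WT and at 6.97, 6.99 and 6.96 in *ZMAT3*-KO, a rise of 0.16 (SE 0.028, adjusted p = 3.46e-04). *ACO1*, which doubles as cytosolic aconitase when it holds an iron-sulfur cluster, was at 6.61, 6.51 and 6.53 and fell to 6.38, 6.40 and 6.33 log2 CPM (-0.18, SE 0.036, adjusted p = 9.39e-04). The transcripts of the 2 iron regulatory proteins thus moved in opposite directions. *HMOX1* was at 5.08, 5.10 and 4.97 log2 CPM and rose to 5.26, 5.26 and 5.16 (0.18, SE 0.046, adjusted p = 0.00464). *NCOA4* was at 7.34, 7.44 and 7.40 log2 CPM and rose to 7.52, 7.55 and 7.55 (0.14, SE 0.031, adjusted p = 0.00162).

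Of the 9 members other than *SLC40A1*, 5 were higher and 3 lower by adjusted p, where 28.7% of all genes in the table were higher and 30.1% lower. With the added requirement of a 1.5-fold change, 2 were higher (*FTH1* and *FTL*), against 4.60% of all genes that were higher and 4.37% that were lower. The median log2 fold change of these 9 was 0.14 and that of all genes -0.01. Since the members were proposed with values of this comparison known, nothing is read from these counts.

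**Figure D2:**
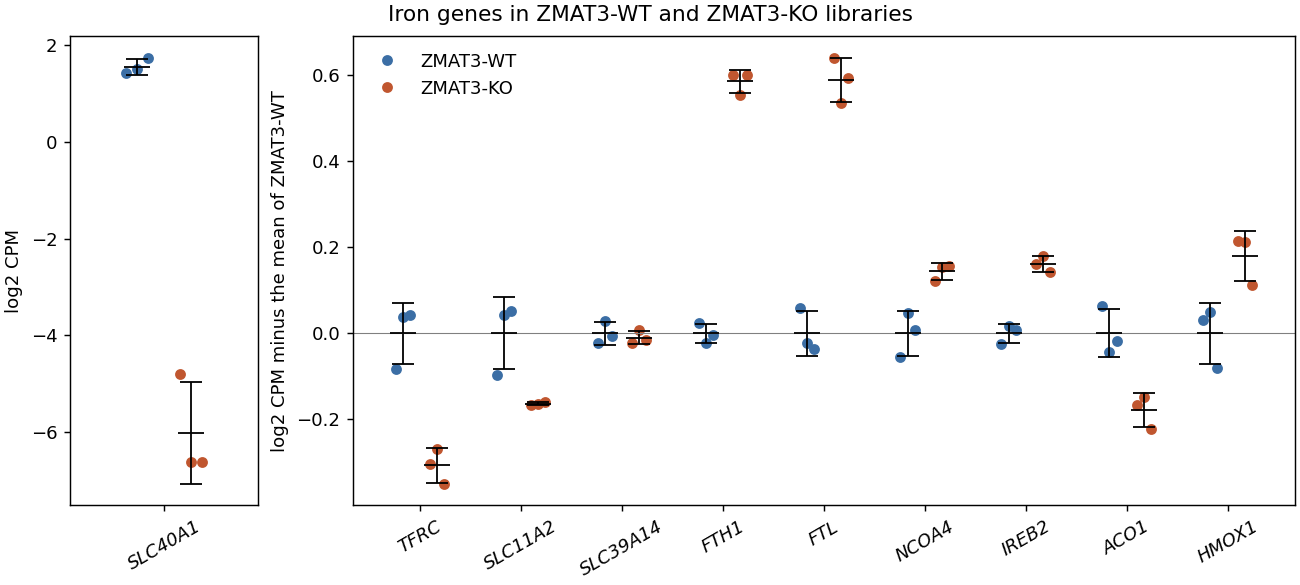
Levels of the 10 iron genes in the 3 *ZMAT3*-WT and 3 *ZMAT3*-KO libraries (points), with the mean and SD of each group (bars). The left panel gives *SLC40A1* in log2 CPM and the right panel gives the other 9 genes as log2 CPM minus the mean of *ZMAT3*-WT. Both ferritin genes lie about 0.59 above the wild-type mean, *TFRC* lies 0.31 below it, and the groups of *SLC39A14* overlap.

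The other genes of iron handling were taken from lists of 85 genes, of which 69 are in the *ZMAT3* table. Of these, 17 were higher and 26 lower by the same test, where 28.7% of all genes were higher and 30.1% lower, and their median log2 fold change was -0.04. With 1.5-fold added, 3 passed, where 4.60% of all genes were higher and 4.37% lower. Nothing is read from these counts, and the genes named below are given as single measurements. Among 7 measured genes of uptake and reduction 3 were higher and 3 lower. *STEAP1*, of the STEAP family of metalloreductases, was at 4.38, 4.38 and 4.39 log2 CPM and fell to 3.45, 3.46 and 3.68 (-0.85, SE 0.062). *TFR2*, the second transferrin receptor, fell by 0.56, while the metal importer *SLC39A8* and the lipocalin receptor *SLC22A17* rose by 0.46 and 0.36. The list did not move one way.

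Of 4 measured genes of export and hepcidin control, 1 was higher and 2 lower. *BMP6*, a ligand that induces hepcidin, had a log2 fold change of -0.52, *HFE*, a partner of the transferrin receptors, one of -0.31, and *NEO1* (neogenin, which binds hemojuvelin) one of 0.33. Of 12 genes that control the IRPs or deliver iron in the cytosol, 3 were higher and 4 lower. *FBXL5*, the iron-sensing subunit of the ubiquitin ligase that removes IRP2, rose by 0.33 and *CIAPIN1* by 0.09, and *NUBP1*, a scaffold for cytosolic iron-sulfur clusters, and *CIAO2B* had log2 fold changes of -0.43 and -0.28.

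In mitochondria, 3 of 22 genes of iron transport and iron-sulfur assembly were higher and 9 lower, against the 28.7% and 30.1% of all genes. The lower ones included the assembly factor *BOLA3* (-0.49) and the co-chaperone *HSCB* (-0.33), and the higher ones the transporter *ABCB10* (0.35) and the assembly factor *ISCA1* (0.27). Haem synthesis held 3 higher and 3 lower of 10. *UROS*, uroporphyrinogen III synthase, rose by 0.65 from 5.53, 5.46 and 5.43 to 6.14, 6.08 and 6.14 log2 CPM (SE 0.036), and *CPOX* and *ALAD* rose by 0.46 and 0.36, while *ALAS1*, the first enzyme of the pathway, had a log2 fold change of -0.49. Haem breakdown and transport held 4 higher and 4 lower of 10, among them *BACH1*, the haem-binding repressor of *HMOX1* and the ferritin genes, with a rise of 0.36, and *FLVCR2*, *FLVCR1* and *ABCG2* with log2 fold changes of -0.75, -0.36 and -0.22. Of 4 other transcripts known to carry an iron-responsive element, 1 was lower, *CDC14A* (-0.38), and none was higher.

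**Figure D3:**
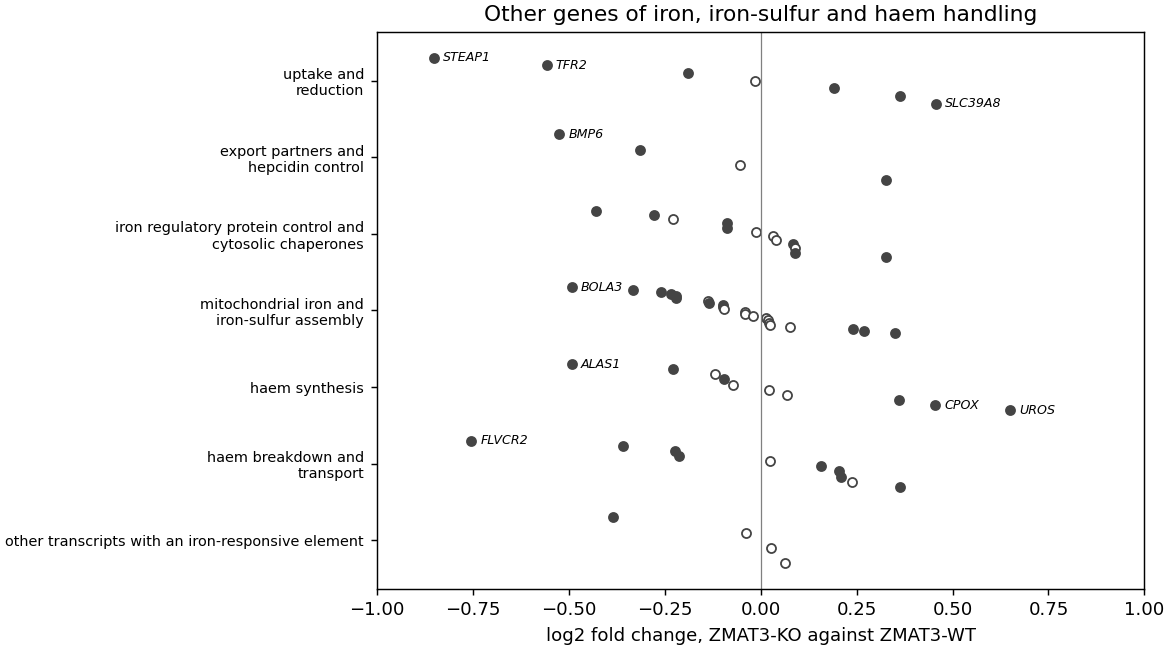
Log2 fold change, *ZMAT3*-KO against *ZMAT3*-WT, of 69 other genes of iron, iron-sulfur and haem handling, by list. Filled points passed an adjusted p of 0.05 (limma), open points did not, and genes past 0.45 in either direction are named. Each of the first 6 lists has members on both sides of 0 that passed.

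The siRNA libraries give the members' levels per length, so genes can be compared there. Among siCTRL libraries, *FTH1* was highest at 2949 and 2021 FPKM, followed by *FTL* at 1566 and 1296 FPKM. *NCOA4* followed 14.0-fold below *FTL*, then *TFRC*, *SLC39A14*, *ACO1*, *HMOX1* and *SLC11A2*, and *IREB2* was lowest at 6.73 and 9.09 FPKM. Neighbours in this order had separate values except *TFRC* and *SLC39A14*, whose libraries overlapped, and with 2 libraries each the order within pairs that lie close, such as *HMOX1* and *SLC11A2* (1.16-fold apart), is not firm.

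Before the siRNA results, 1 feature of these libraries has to be given. Deviations from the group means, over the 14274 genes tested, were alike in siCTRL replicate 2 and sip53 replicate 1 (r = 0.62 across genes, which are not independent) and opposite in libraries of the same number. With 2 libraries a group the deviations in a group mirror each other, so alike and opposite here are a single value. *TFRC* was 1.38-fold higher in siCTRL replicate 2 than in siCTRL replicate 1 and 1.94-fold higher in sip53 replicate 1 than in sip53 replicate 2. *SLC39A14* showed the same with 1.29-fold and 1.84-fold, and *FTH1* the reverse with ratios of 0.685 and 0.652. *FTL* (0.828 and 0.803), *IREB2* (1.35 and 1.33) and *ACO1* (1.14 and 1.16) also had like ratios in both groups, while those of *HMOX1* (1.177 and 0.919), *NCOA4* (0.917 and 1.15) and *SLC11A2* (0.983 and 1.56) went opposite ways. The median of these deviations rose slightly with transcript length. Of 3 groups of genes split by length, the shortest had a median log2 ratio of -0.05 in siCTRL (replicate 2 over 1) and -0.12 in sip53 (replicate 1 over 2). The middle group had -0.04 and -0.02, and the longest had 0.03 and 0.12. The spread within each group was not computed. The part of this in the members' spread was not tested.

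With sip53, 4 of the 9 members measured passed an unadjusted p of 0.05, the threshold used in this experiment, and 0 passed an adjusted p (limma, on log2(FPKM + 0.1)). *HMOX1* and *FTL* were higher, where 5.86% of the 14274 genes tested were higher, and *IREB2* and *NCOA4* were lower, where 9.28% were lower. At an adjusted p of 0.05, 0.273% of all genes passed. After every library had been centred on its own median, the whole-table counts went from 836 higher and 1325 lower to 1120 higher and 1048 lower, and the median log2 fold change of all genes went from -0.04 to 0.04. The members' median log2 fold change was 0.09.

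*HMOX1* was at 14.5 and 17.1 FPKM with siCTRL and at 25.15 and 27.4 FPKM with sip53, a log2 fold change of 0.73 (SE 0.19, adjusted p = 0.189 in limma). Both sip53 libraries were above both siCTRL libraries, and among the fits that left out a library the call was lost only without siCTRL replicate 1 (0.62). *FTL* was at 1566 and 1296 FPKM with siCTRL and at 2021 and 2517 FPKM with sip53 (0.66, SE 0.25, adjusted p = 0.302 in limma). Its call was lost when any 1 of the 4 libraries was left out (log2 fold changes of 0.50 to 0.82). *FTH1* was at 2949 and 2021 FPKM with siCTRL and at 2324 and 3566 FPKM with sip53, with overlapping groups and a 95% interval from -0.60 to 1.08. Ferritin pseudogenes number 10 in this table, with *FTH1P2* at 30.4 and 9.58 FPKM with siCTRL and at 12.8 and 28.2 FPKM with sip53, and *FTH1P20* at 13.2 and 3.39 and at 3.40 and 17.1 FPKM, low in siCTRL replicate 2 and sip53 replicate 1 as *FTH1* was.

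*IREB2* was at 6.73 and 9.09 FPKM with siCTRL and at 5.38 and 4.04 FPKM with sip53 (-0.73, SE 0.25, adjusted p = 0.279 in limma). The call was lost without siCTRL replicate 2 (-0.52) or sip53 replicate 2 (-0.53). *NCOA4* was at 106 and 97.5 FPKM with siCTRL and at 78.6 and 68.5 FPKM with sip53 (-0.47, SE 0.19, adjusted p = 0.324 in limma). Its call was lost without any 1 library (-0.57 to -0.37), with a filter at 5 FPKM, with centring (-0.40) and without the variance trend. Those of *FTL* and *IREB2* were also lost without the filter on low values, and with the replicate number as a block 0 of the 4 passed.

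The other members did not pass in this fit, which pairs no libraries. *TFRC* was at 44.3 and 60.9 FPKM with siCTRL and at 78.0 and 40.2 FPKM with sip53, so the sip53 libraries lay on either side of the controls, and the 95% interval of its log2 fold change ran from -0.81 to 1.03. *SLC11A2* was at 13.7 and 13.5 FPKM with siCTRL and at 15.4 and 9.85 FPKM with sip53, and *ACO1* was at 24.55 and 28.1 and at 30.1 and 26.0 FPKM. *SLC39A14* was at 40.1 and 51.9 FPKM with siCTRL and at 47.0 and 25.5 FPKM with sip53 (-0.40). Without sip53 replicate 1 its log2 fold change was -0.84 and passed an unadjusted p of 0.05 (adjusted p = 0.32 in limma). For these 5 members, *FTH1* included, the wide interval held both 0 and the change measured in the *ZMAT3* experiment, so it does not tell these apart. Among the members that passed, the interval of *FTL* held the change measured there, and those of *HMOX1*, *IREB2* and *NCOA4* did not.

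**Figure D4:**
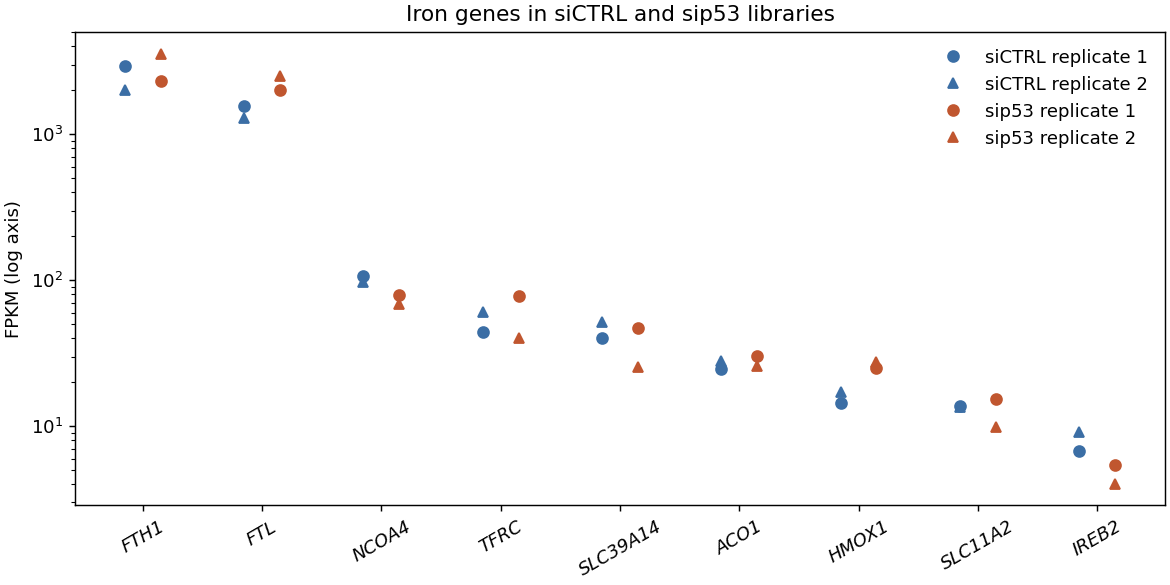
FPKM of the 9 iron genes in each of the 2 siCTRL and 2 sip53 libraries, on a log axis, ordered by the mean with siCTRL. Circles are replicate 1 and triangles replicate 2. The sip53 libraries lie above both controls for *FTL* and *HMOX1*, below both for *NCOA4* and *IREB2*, and overlap them for the other 5.

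Of the wider lists, 70 genes were tested in the siRNA libraries, and 2 were higher and 4 lower by unadjusted p, with 0 past an adjusted p in limma. Both shares are under the 5.86% and 9.28% of all genes, so nothing is read from the lists, and the 6 genes are given only by their values. *FDXR*, the ferredoxin reductase that feeds electrons to iron-sulfur assembly and a known p53 target, was at 59.1 and 66.0 FPKM with siCTRL and at 19.7 and 21.6 FPKM with sip53, a log2 fold change of -1.59 (SE 0.18, adjusted p = 0.0573 in limma). *HFE* was at 5.47 and 5.82 FPKM with siCTRL and at 2.60 and 1.71 FPKM with sip53 (-1.38), *FURIN*, a protease that cuts hemojuvelin, at 33.5 and 29.7 and at 21.0 and 22.3 FPKM (-0.54), and *UROS* at 34.2 and 34.4 and at 23.8 and 23.7 FPKM (-0.53). *BMP6* was at 0.59 and 0.57 FPKM with siCTRL and at 1.51 and 1.78 FPKM with sip53 (1.36), and *FLVCR1* at 5.19 and 3.43 and at 7.40 and 7.28 FPKM (0.78). None of the 8 measured genes of uptake and reduction, the 12 of IRP control or the 4 other transcripts with an iron-responsive element passed.

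The experiments were processed and scaled apart, so a difference between them was not tested, and their values are only set side by side. The log2 fold change of *FTL* was 0.59 in *ZMAT3*-KO and 0.66 with sip53, and *HMOX1* had 0.18 and 0.73. *IREB2* had 0.16 in *ZMAT3*-KO and -0.73 with sip53, and *NCOA4* had 0.14 and -0.47. *FTH1* and *TFRC*, which passed in *ZMAT3*-KO cells at 0.59 and -0.31, had 0.24 and 0.11 with sip53 and did not pass in the fit without pairing. Outside the members, *HFE* had -0.31 and -1.38 and *FDXR* had -0.23 and -1.59. *BMP6* had -0.52 and 1.36, *FLVCR1* had -0.36 and 0.78, and *UROS* had 0.65 and -0.53. *FURIN* had -0.05, which did not pass, and -0.54.

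**Figure D5:**
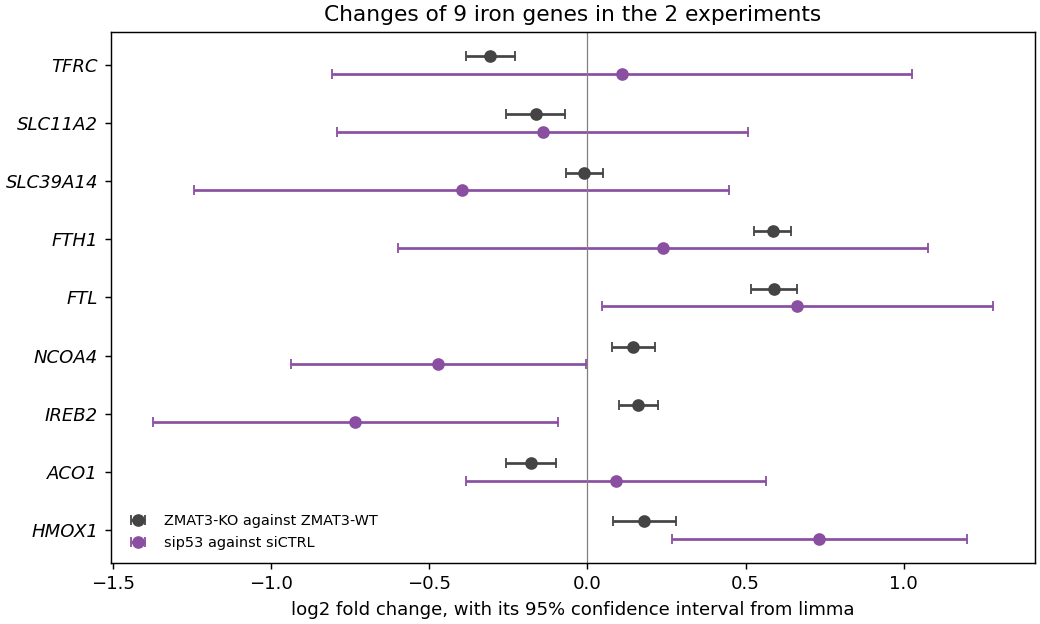
Log2 fold change of the 9 iron genes measured in both experiments (points), with the 95% confidence interval from limma (bars). The *ZMAT3* experiment, with 3 libraries a group, gave intervals several times narrower than the siRNA experiment, with 2. *FTL* and *HMOX1* lie above 0 in both, and *IREB2* and *NCOA4* lie above 0 in *ZMAT3*-KO and below 0 with sip53.

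Promoters of 7 of the 10 members were found in a table of RefSeq promoters (hg38), each a window around the start of the gene. The core of the antioxidant response element, TGACNNNGC, through which *HMOX1* and ferritin genes are known to be induced, was in none of the 7 on either strand, where 13.6% of 27305 promoters hold it. The letters TGANTCA, which are broader than the JUN motif TGASTCA (S is C or G) given by the authors, were in 1, *NCOA4*, where 7.76% hold them. Which middle base the *NCOA4* match has was not looked at. The promoters of *FTH1*, *HMOX1* and *SLC39A14* were not among the sequences used, and no match says only that the letters are not in this window.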

How the data were processed

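RNA-seq was done on 10 HCT116 libraries. For the *ZMAT3* experiment reads were trimmed with Cutadapt, mapped with STAR (hg38) and summarised per gene with RSEM, and the authors deposited log2 CPM values in which all 6 libraries share 1 distribution (linear sums of 999929 to 999931). The siRNA values deposited by the authors were read as FPKM and sum to 708634 to 829230 per library. How they were made is not given in the sources used here, although the submitters' processing notes list CASAVA 1.8.2, TopHat2 2.0.8 and FastQC 0.11.2 and the builds hg19 and hg38 for the series. Both deposited tables also carry the authors' own fold changes and p-values, and the siRNA table a mean signal per gene, a standard error and a test score, which were not used.

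Samples were grouped by their labels. Each table was fitted alone with limma 3.58.1 in R 4.3.3 (variance trend, two-sided, Benjamini-Hochberg over all genes tested). The *ZMAT3* fit used all genes, with calls at an adjusted p of 0.05, or that with 1.5-fold. The siRNA fit used log2(FPKM + 0.1), a minimum mean of 0.5 FPKM and calls at an unadjusted p of 0.05. Exact permutation cannot go below p = 0.1 with 3 against 3 or 0.333 with 2 against 2. The authors describe the *ZMAT3* libraries as biological triplicates. No label says that replicates were separate cultures, and 1 knockout clone was used, so p-values measure the spread between these libraries. The members and lists were chosen with earlier results of these data known. All members are named, with at most 4 genes of a list that passed and changed most, the highest 2 pseudogenes, the 3 profiles nearest to *SLC40A1*, and *ZMAT3* and *CDKN1A* as checks. Sequences were read with Python 3.11.15 and figures drawn with matplotlib 3.10.9. Fits were tested on simulated data. The targeted p53 gene is not reported here.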

Additional observations from a re-analysis of the deposited data

How the results depend on the processing

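The changes of the 9 members other than *SLC40A1* kept their side of an adjusted p of 0.05 in the *ZMAT3* experiment under every alternative run (a pseudocount of 1, a filter on low values, centring, no variance trend, the replicate block and leaving out each library), with *SLC39A14*, which did not pass, moving between -0.02 and 0.00. *SLC40A1* was removed by the filter at a mean log2 CPM of 0. At 2-fold, 396 of 13029 genes, 1 member and 0 genes of the wider lists were called instead of 1168, 3 and 3, since fewer genes pass a higher fold. Member counts here include *SLC40A1*, whose fall led to the choice of the members. The 1 member called at 2-fold is *SLC40A1*, so its count is no result about the members. With 1 CPM added, 785 genes were called. Leaving out a library gave 1154 to 1201 genes, 1 to 3 members and 3 to 4 genes of the wider lists.

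In the siRNA experiment calls depended on the setting. Of 2161 genes, 4 members and 6 genes of the wider lists, an adjusted p left 39, 0 and 0. Without the filter 2 members were called. Leaving out a library, which assumes that the lone library of a group varies like the others, gave 1185 to 1891 genes, 1 to 3 members and 3 to 6 genes of the wider lists. The fewest genes came without siCTRL replicate 1 (1185) and without siCTRL replicate 2 (1198), and 3 wider genes without sip53 replicate 1. Without a library, *FTH1* ran from -0.07 to 0.55, *TFRC* from -0.37 to 0.59, *SLC11A2* from -0.46 to 0.18 and *ACO1* from -0.02 to 0.19.

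Deviations were not alike in libraries of the same replicate number. Same-numbered *ZMAT3* libraries had deviations correlated at -0.04, -0.02 and -0.09, and the replicate block called 1178 genes. In the siRNA libraries the correlation was -0.62, and the replicate block called 1084 genes and 0 members. With 2 libraries a group this is the r of 0.62 given above with its sign turned, so it cannot show how the libraries were paired. The crossed pairing, added after the data were seen, called 5538 of 14274 genes, 6 of 9 members and 20 of 70 genes of the wider lists. It was chosen from the deviations of these same libraries, so a fit with it leaves less spread by construction. Nothing is read from its counts. The cause of the changes under the block was not tested. Library depth is unknown, which limits what can be said of *SLC40A1* near the lowest value.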
